A study of Homo sapiens with 4 samples.

Results

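Of the protein-coding genes in chromosome band 9p21 around CDKN2A, 9 were followed through 4 RNA sequencing libraries. In order along the chromosome they were MLLT3, FOCAD, KLHL9, MTAP, CDKN2A, CDKN2B, DMRTA1, CAAP1 and PLAA. They were chosen by name, as CDKN2A and genes on both sides of it, and all 9 of 9 were among the 32973 genes of the deposited table. Between the starts of MLLT3 and PLAA lie 31 other listed rows, some of them protein-coding genes. The libraries came from 2 human bladder cancer cell lines, T24T, a derivative of the T24 line, and UMUC3. Cells of both lines carried a stable plasmid, which was either the vector alone or one that overexpresses BCUC-1 (hsa_circ_0001361), a circular RNA. The 4 groups, T24T and UMUC3 each with vector and with BCUC-1, had 1 library each, and all were grown in RPMI-1640 medium with serum and antibiotics. Whether the stably transfected cells were clones or pools is not given in the sources used here. Within a line there is no repeat of a treatment, so the 2 libraries of a line, which differ in treatment, are the only repeat of that line.

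CDKN2A is one of the main tumour suppressor genes of the short arm of chromosome 9. From separate first exons it makes p16INK4a, which inhibits the cyclin D kinases and so keeps RB active, and ARF, which binds and inhibits the ubiquitin ligase MDM2. CDKN2B encodes p15INK4b, a related kinase inhibitor, and MTAP encodes the enzyme that recycles methylthioadenosine, a by-product of polyamine synthesis, to methionine and adenine. Loss of this segment is frequent in urothelial cancers, often takes MTAP along with CDKN2A, and can also take the type I interferon genes that lie between FOCAD and MTAP. The question here is which of these genes were expressed, and which were not, in each line. RNA reads do not measure DNA copies, and at gene level the p16INK4a and ARF transcripts of CDKN2A cannot be told apart.

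The sequences just upstream of the 4 genes that had reads in T24T and none or 1 read in UMUC3 are shown first, because these members moved together. They run 5′ to 3′ on the strand of the gene, upstream of the RefSeq start and shortened where an annotated exon begins, on build GRCh38 from RefSeq, with each CG dinucleotide in capitals. For CDKN2A the upstream of its distal start, that of the ARF transcript, is given.
MTAP (chr9:21802386-21802542, plus strand): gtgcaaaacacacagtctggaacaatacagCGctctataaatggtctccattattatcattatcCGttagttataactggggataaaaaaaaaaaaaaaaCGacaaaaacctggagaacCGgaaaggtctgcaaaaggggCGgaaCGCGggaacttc
CDKN2A (chr9:21995325-21995574, minus strand): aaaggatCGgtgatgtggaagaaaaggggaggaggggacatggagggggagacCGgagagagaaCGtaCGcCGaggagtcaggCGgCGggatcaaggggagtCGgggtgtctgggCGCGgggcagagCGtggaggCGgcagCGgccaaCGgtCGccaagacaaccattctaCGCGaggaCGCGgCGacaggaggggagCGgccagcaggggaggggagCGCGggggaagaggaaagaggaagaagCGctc
CDKN2B (chr9:22009364-22009555, minus strand): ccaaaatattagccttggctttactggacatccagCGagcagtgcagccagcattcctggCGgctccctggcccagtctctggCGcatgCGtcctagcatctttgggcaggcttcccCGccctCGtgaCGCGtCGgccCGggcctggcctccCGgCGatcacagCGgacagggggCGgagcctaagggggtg
DMRTA1 (chr9:22446574-22446823, plus strand): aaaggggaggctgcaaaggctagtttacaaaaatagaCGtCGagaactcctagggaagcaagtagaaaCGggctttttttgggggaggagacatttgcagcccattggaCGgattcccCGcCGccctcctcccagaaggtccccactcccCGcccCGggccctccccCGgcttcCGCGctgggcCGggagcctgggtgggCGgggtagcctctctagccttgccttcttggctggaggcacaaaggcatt
CG reads the same on both strands. In the full windows of 300 bases (250 before and 50 after the start), it was counted 15 times at MTAP, 28 times at the distal and 26 times at the proximal start of CDKN2A, 25 times at CDKN2B and 16 times at DMRTA1. At least as many were held by 48.9%, 26.2%, 30.1%, 32.0% and 47.5% of the 35116 promoter windows in that table, whose median was 14. The windows of members with reads in both lines held 24 at MLLT3, 39 at FOCAD, 19 at KLHL9 and 23 at PLAA, so the counts of both sets of genes overlapped. RefSeq windows were matched for 8 of the 9 members, all but CAAP1. These counts describe the letters of the reference, not the state of the DNA in the cells.

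The deposited values are RPKM, reads per kilobase of exonic length and per 1000000 assigned reads. The values were whole multiples of 1 read in every library, so read counts could be recovered, and the libraries held 22730112 to 26497894 assigned reads. The 95% intervals below are exact and cover counting error only. For a gene with 0 reads the upper limit is set at 3 reads in that library. Fold bounds from that limit take the T24T reads as they stand and leave out their counting error. The exact 95% limits of the ratio of UMUC3 to T24T, given beside them, allow a smaller fold. The labelled origin was checked on marker genes. The simple-epithelium keratin KRT7 stood at 27.1 and 24.95 RPKM in T24T and 2.99 and 3.02 in UMUC3, and KRT8 and KRT18 stood at 81.5 to 146.2 RPKM in T24T and 13.0 to 42.1 in UMUC3. The urothelial uroplakins UPK1A, UPK1B, UPK2 and UPK3A and the luminal factor GATA3 stood at 1.03 RPKM or lower in all 4 libraries, the luminal factor PPARG at 1.60 to 1.87, and CDH1 at 0.0069 or lower. The mesenchymal filament gene VIM stood at 82.9 to 267.5 RPKM. The leukocyte markers PTPRC and CD3E had 0 reads in all 4.

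The 9 genes fell into 3 patterns. MTAP, CDKN2A, CDKN2B and DMRTA1 were read in both T24T libraries and had between 0 and 1 read in each UMUC3 library. MLLT3 was the reverse, with 31 and 32 reads in T24T and a level about 10 times as high in UMUC3. FOCAD, KLHL9, CAAP1 and PLAA had 549 to 3064 reads in each of the 4 libraries. In both T24T libraries the order of levels in RPKM was CAAP1, PLAA, KLHL9, CDKN2A, MTAP, FOCAD, CDKN2B, with DMRTA1 and MLLT3 last. The counting intervals of KLHL9 and CDKN2A overlapped, as did those of DMRTA1 and MLLT3. In both UMUC3 libraries the order was PLAA, CAAP1, KLHL9, FOCAD and MLLT3, with intervals that did not overlap, followed by the 4 genes with at most 1 read.

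**Figure D1:**
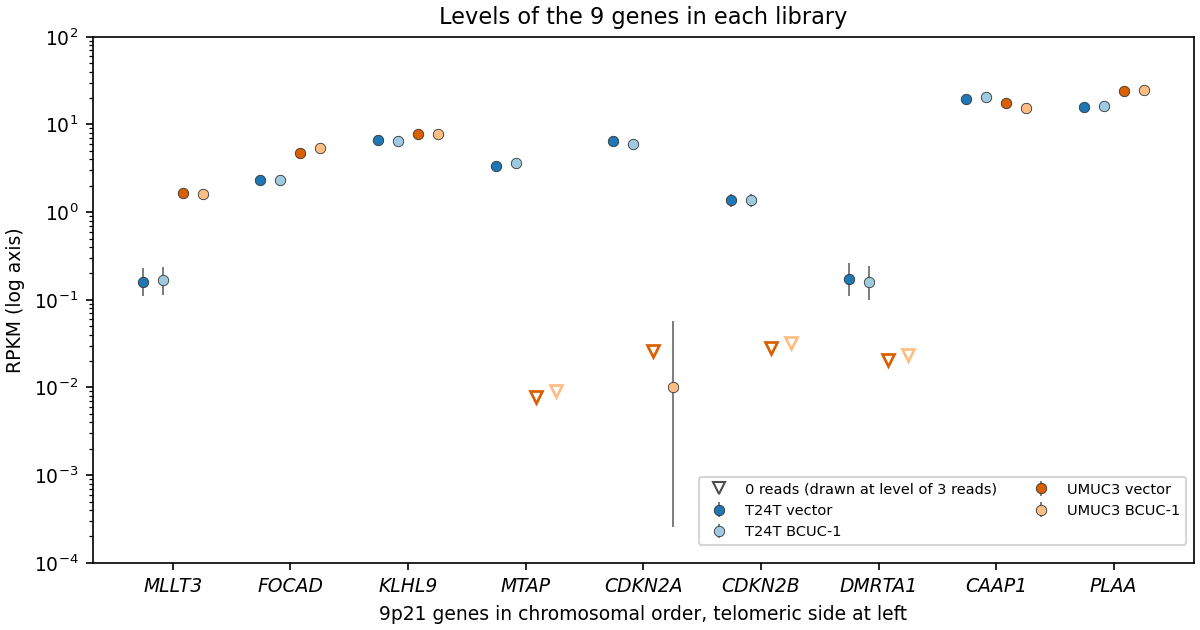
Level of each of the 9 genes in RPKM (logarithmic vertical axis) in the 4 libraries, in chromosomal order; vertical bars are exact 95% counting intervals, and open triangles mark libraries with 0 reads, drawn at the level of 3 reads. CDKN2A sits at 6.48 and 5.98 RPKM in T24T and has 0 and 1 read in UMUC3, while KLHL9, CAAP1 and PLAA sit at 6.50 to 24.9 RPKM in all 4 libraries.

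CDKN2A lies on chromosome 9 from 21967753 to 21995301 on the minus strand. T24T gave 664 reads with vector and 611 with BCUC-1, and UMUC3 gave 0 and 1. These were levels of 6.48 RPKM (95% interval 5.99 to 6.99), 5.98 (5.52 to 6.48), 0 and 0.0102 (0.000257 to 0.0566). The lines do not overlap. With vector, T24T was 248-fold higher against a limit of 3 reads in the UMUC3 library. The exact upper limit of the ratio of UMUC3 to T24T was 0.00498. With BCUC-1, the ratio of T24T to UMUC3 was 589 (105 to 23292), on 1 UMUC3 read. The opposite-strand transcript CDKN2B-AS1 shares 341 exonic bases with CDKN2A. T24T held 62 and 45 of its reads, of which 5.004 and 3.63 would fall in the shared bases if spread evenly. Whether the counting used strand is not given in the sources used here, so a read in those bases cannot be assigned to one strand.

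CDKN2B, the neighbouring INK4 gene (22002903 to 22009363, minus strand), had 131 and 130 reads in T24T vector and BCUC-1, at 1.36 RPKM (1.14 to 1.62) and 1.36 (1.13 to 1.61). It had 0 reads in both UMUC3 libraries. Against the limit of 3 reads, T24T was 48.9-fold higher with vector and 41.8-fold higher with BCUC-1. The exact upper limits of the ratio of UMUC3 to T24T were 0.0255 and 0.0299.

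MTAP, the methylthioadenosine phosphorylase gene (21802543 to 21937651, plus strand), had 1169 reads in T24T vector and 1264 in T24T BCUC-1. Its levels there were 3.38 RPKM (3.19 to 3.58) and 3.67 (3.47 to 3.87). UMUC3 had 0 reads in both libraries, which allows levels of up to 0.00775 and 0.00903 RPKM. Against the limit of 3 reads, T24T was 436-fold higher with vector and 406-fold higher with BCUC-1. Of the 9 genes, MTAP gave the highest such bound with vector. The exact upper limits of the ratio of UMUC3 to T24T were 0.00282 and 0.00303. A row listed only by a clone name starts inside MTAP on the same strand (21802636 to 22032986) and shares 460 exonic bases with it. T24T gave 261 and 235 reads of that row and UMUC3 gave 0, so part of the reads may be counted in both rows.

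DMRTA1, a transcription factor gene of the DM domain family (22446841 to 22455740, plus strand), gave 23 and 21 reads in the T24T libraries (vector, then BCUC-1) and 0 in both UMUC3 libraries. Its T24T levels of 0.174 RPKM (0.111 to 0.262) and 0.160 (0.0990 to 0.244) lay under the floor of the test described below. With so few reads the bound was low. Against the limit of 3 reads, T24T was 8.58-fold higher with vector and 6.75-fold with BCUC-1. The exact upper limits of the ratio of UMUC3 to T24T were 0.155 and 0.199.

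MLLT3 lies at the telomeric end of the set (20341665 to 20622543, minus strand) and encodes AF9, a reader of acylated histones and a subunit of the super elongation complex. T24T gave 31 reads with vector and 32 with BCUC-1, against 359 and 297 in UMUC3. The levels were 0.161 and 0.167 RPKM in T24T, and 1.67 and 1.61 in UMUC3. The lines do not overlap, and UMUC3 was 10.3 times T24T with vector (7.16 to 15.5) and 9.63 times with BCUC-1 (6.68 to 14.3). MLLT3 was the only member under 0.5 RPKM in T24T and above 1 in UMUC3.

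FOCAD, which encodes focadhesin, a protein that stabilises the RNA-degrading SKI complex, and is the host gene of MIR491, lies from 20658309 to 20995955 on the plus strand. It stood at 2.32 RPKM in both T24T libraries (551 and 549 reads) and at 4.78 and 5.35 in UMUC3 vector and BCUC-1 (1270 and 1221 reads). UMUC3 was 2.06 times T24T with vector (1.86 to 2.28) and 2.31 times with BCUC-1 (2.09 to 2.56). MIR491 itself was not listed, and its antisense neighbour FOCAD-AS1, which shares no exonic base with FOCAD, had 2 and 0 reads in the T24T pair and 4 and 5 in the UMUC3 pair.

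KLHL9, a substrate adaptor of the CUL3 ubiquitin ligase (21329671 to 21335380, minus strand), is the neighbour of MTAP among the members on the telomeric side. It stood at 6.71 and 6.50 RPKM in T24T and at 7.73 and 7.71 in UMUC3. UMUC3 was higher by a ratio of 1.15 with vector (1.06 to 1.26) and 1.19 with BCUC-1 (1.08 to 1.301). Of the 5 members read in both lines, KLHL9 was the closest to equality with BCUC-1, and CAAP1 with vector.

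CAAP1, which encodes a caspase activity and apoptosis inhibitor (26840685 to 26892804, minus strand), was the only one of those 5 that was lower in UMUC3. It stood at 19.7 and 20.5 RPKM in T24T and at 17.4 and 15.2 in UMUC3. The ratio of UMUC3 to T24T was 0.886 with vector (0.822 to 0.955) and 0.744 with BCUC-1 (0.686 to 0.806).

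PLAA, a ubiquitin-binding cofactor of the VCP segregase (26904083 to 26947463, minus strand), closed the set. It stood at 15.7 and 16.4 RPKM in T24T and at 23.97 and 24.9 in UMUC3. UMUC3 was 1.53 times T24T with vector (1.44 to 1.62) and 1.52 times with BCUC-1 (1.43 to 1.61). The opposite-strand gene IFT74 shares 272 exonic bases with PLAA and stood at 2.23 and 1.98 RPKM in T24T and 14.8 and 12.01 in UMUC3. Spread evenly, 14.3 and 12.7 of its T24T reads and 106.8 and 74.2 of its UMUC3 reads would fall in the shared bases, beside 1794, 1867, 3064 and 2728 PLAA reads.

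The difference between the lines was tested with limma on log2(RPKM + 1), over every gene that reached 1 RPKM in at least 2 libraries and with treatment as a covariate. The lines differ widely, since 70.4% of the 15415 genes tested passed a Benjamini-Hochberg adjusted p of 0.05, 29.6% higher in UMUC3 and 40.8% lower. Passing is therefore common, and the size of a difference tells more than its call. Of the 9 genes, 8 entered the fit. MLLT3, MTAP, CDKN2A and CDKN2B did so through 1 line alone and so had to differ. Values below are UMUC3 minus T24T in log2(RPKM + 1), which understates the change of low genes.

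On this scale CDKN2A had the largest difference, -2.85 (SE 0.10), followed by MTAP at -2.18 (SE 0.096) and CDKN2B at -1.24 (SE 0.090). With UMUC3 at or near 0 reads, this order is that of their T24T levels and does not rank the depth of loss. Limma-voom on the recovered reads gave another order, with MTAP at -11.3, CDKN2A at -9.57 and CDKN2B at -8.09. The Benjamini-Hochberg adjusted p-values from limma were 2.41e-06, 5.46e-06 and 3.95e-05. With no filter on low values, where every listed gene is tested, they were 0.0122, 0.0128 and 0.0137 from limma. There DMRTA1, at -0.22 (SE 0.032), had an adjusted p of 0.0324 from limma. In that fit 9908 of 32973 genes passed, and DMRTA1 rested on 23 and 21 T24T reads against 0 in UMUC3. MLLT3 was higher in UMUC3 by 1.18 (SE 0.092), FOCAD by 0.87 (SE 0.10) and PLAA by 0.58 (SE 0.070), with adjusted p-values of 5.41e-05, 0.000301 and 0.000378 from limma.

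The 2 smallest differences were not firm. KLHL9 stood at 0.20 (SE 0.085), with an adjusted p of 0.0757 from limma. CAAP1 was lower in UMUC3 by -0.28 (SE 0.085), with an adjusted p of 0.0210 from limma. All genes together had a median of -0.10, and scaling the libraries to equal medians moved that median by 0.12. On that scale KLHL9 stood at 0.33 and passed, with an adjusted p of 0.00946 from limma, and CAAP1 stood at -0.15 and did not, with 0.207. CAAP1 also missed the threshold without T24T vector or without T24T BCUC-1 (limma adjusted p 0.112 and 0.159), in fits without the treatment covariate where the spread came from the UMUC3 pair and the lone T24T library was assumed to vary like it. The fit over 4 libraries left 1 residual degree of freedom, which for each gene is how far the BCUC-1 difference varied between the lines. Limma moderates it with the spread of all genes tested. These p-values therefore do not measure the spread between repeats of a line.

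The segment without UMUC3 reads was then traced through all 40 rows listed between the starts of MLLT3 and PLAA, 31 of which are not members. With rows ordered by start, the last with UMUC3 reads before the gap was MIR31, the hairpin gene of miR-31, which ends at 21512185. The next was LINC01239, a noncoding RNA gene that starts at 22646200, with 3 and 1 UMUC3 reads. From one to the other are 1134 kilobases, into which the MIR31 host gene MIR31HG reaches as far as 21559669. The 15 rows that start there hold MTAP, CDKN2A, CDKN2B and DMRTA1. Of these rows 14 had 0 UMUC3 reads, and the exception was the single CDKN2A read in UMUC3 BCUC-1. Some of the 15 rows share exons, so some reads may be counted more than once. Over these rows the T24T libraries summed to 2395 (vector) and 2392 (BCUC-1) reads, and UMUC3 0 and 1.

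**Figure D2:**
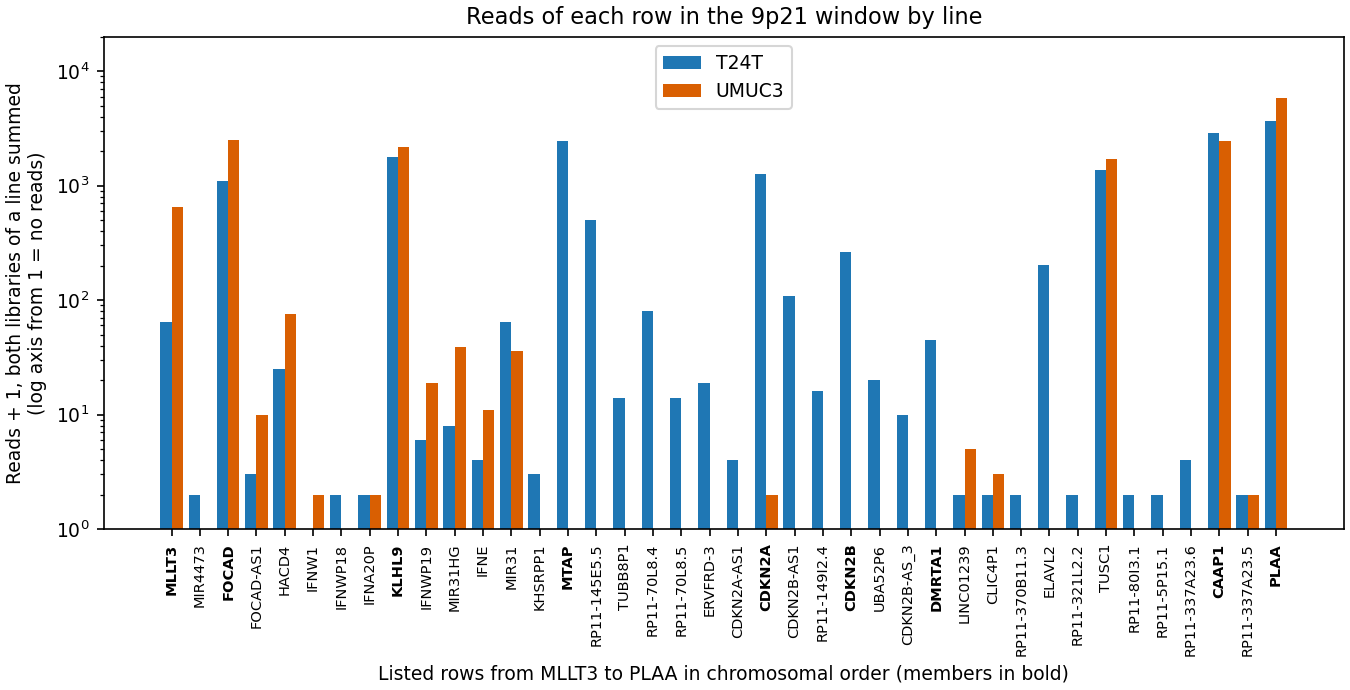
Reads plus 1 (logarithmic axis, where the baseline of 1 means no reads) of each of the 40 listed rows from MLLT3 to PLAA, summed over the 2 libraries of T24T (blue) and of UMUC3 (orange), with members in bold. From KHSRPP1 to DMRTA1 there are 15 rows with T24T reads and a single UMUC3 read, at CDKN2A.

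MIR31 marks the telomeric side of that segment, and its main product is shown with the seed, bases 2 to 8, in capitals (RefSeq, GRCh38, chr9:21512158-21512178, minus strand).
hsa-miR-31-5p: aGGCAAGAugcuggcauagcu
The 71-base MIR31 row held 28 and 35 T24T reads against 24 and 11 UMUC3 reads, or 16.7, 20.9, 12.8 and 6.82 RPKM. Its line difference was -0.92 (SE 0.23), with an adjusted p of 0.0108 from limma. Libraries of this kind do not measure the mature miRNA. Its host transcript MIR31HG gave 4 and 3 reads in T24T against 19 in both UMUC3 libraries, the opposite order.

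Beside MIR31, 6 of the 31 neighbouring rows reached 20 reads in a library. The clone-named row that starts inside MTAP stood at 11.8 and 10.7 RPKM in T24T and at 0 in UMUC3, so it too entered the fit through 1 line alone. RP11-70L8.4, within MTAP on the opposite strand, gave 37 and 42 T24T reads, and UMUC3 gave 0. CDKN2B-AS1, the noncoding RNA known as ANRIL, had 62 and 45 against 0. HACD4, a dehydratase of fatty acid elongation that lies between FOCAD and KLHL9, gave 9 and 15 reads in T24T against 40 and 35 in UMUC3.

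On the centromeric side, ELAVL2, which encodes a neuronal RNA-binding protein, gave 99 and 104 T24T reads, and UMUC3 gave 0. It lies beyond LINC01239 and the pseudogene CLIC4P1, which had 1 read in each UMUC3 library. TUSC1, a gene that stands between ELAVL2 and CAAP1, was read at similar levels in both lines, 13.8 and 14.6 RPKM in T24T and 15.1 and 18.7 in UMUC3. Its difference of 0.23 (SE 0.084) had an adjusted p of 0.0469 from limma. The other 24 rows had fewer than 20 reads in each library.

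The type I interferon genes, antiviral cytokines whose cluster lies between FOCAD and MTAP, were hardly read in either line. Of 16 genes on that list, 14 were not listed, which means 0 reads in all 4 libraries. IFNW1 had 1 read, in UMUC3 vector. IFNE, the listed one nearest to MTAP, gave 3 and 0 reads in T24T against 8 and 2 in UMUC3.

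A gene was counted as lost in a line when it stood under 0.1 RPKM in both of its libraries and at 1 RPKM or more in both libraries of the other line. In UMUC3 this held for 4 of 11 countable rows of the window (MTAP, the clone-named row that starts inside it, CDKN2A and CDKN2B), or 36.4%. The clone-named row shares 460 of its 935 exonic bases with MTAP, so the 2 are not separate counts. Among the members alone, the rule held for 3 of 8, or 37.5%. Over all listed genes it held for 360 of 15292, a background of 2.35%, and over the rest of chromosome 9 for 12 of 608, or 1.97%. In T24T it held for 0 of the 11 rows, against a background of 1.99%. At a lower bar of 0.5 RPKM for the line that keeps the gene, the window had 9 lost rows in UMUC3 and the rest of chromosome 9 had 23. The added rows of the window include ELAVL2, which lies beyond the segment, and rows with as few as 3 reads in a T24T library. A share over all genes is not given for the changed bars, so these counts are not read as a wider loss. With under 0.5 RPKM counted as lost, MLLT3 became the 1 row lost in T24T. The members were chosen with these values known, so the shares are a description.

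Along chromosome 9 the genes around the segment were mostly higher in UMUC3. On the telomeric side of the CDKN2A start the median difference was 0.45 over 31 genes beyond 10 megabases (Mb) and 0.42 over 11 genes from 5 to 10 Mb. Within 5 Mb on that side, members included, the median of 16 genes was 0.28, and within 5 Mb on the centromeric side that of 6 genes was -0.029. From 10 to 20 Mb it was 0.14 over 112 genes, and from 20 to 60 Mb it was -0.70 over 57 genes, lower than in any other bin. Over the whole of chromosome 9, 623 genes had a median of 0.023.

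**Figure D3:**
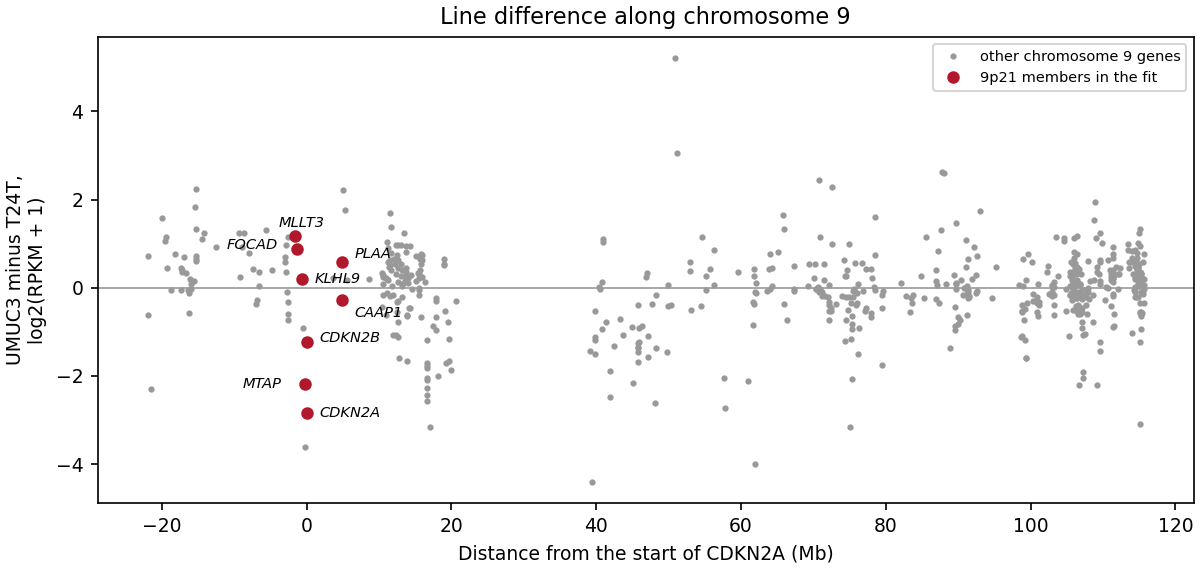
Difference between the lines, UMUC3 minus T24T in log2(RPKM + 1), of each tested gene of chromosome 9 against its distance in Mb from the start of CDKN2A, with the 8 members in the fit in red and other genes in grey. CDKN2A (-2.85), MTAP (-2.18) and CDKN2B (-1.24) sit well below the neighbouring MLLT3 (1.18), FOCAD (0.87) and KLHL9 (0.20).

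The genes whose levels over the 4 libraries were most like those of CDKN2A, by Euclidean distance of log2(RPKM + 1), lay on other chromosomes. They were the potassium channel gene KCNJ2 (distance 0.0874, 6.49 and 6.41 RPKM in T24T, 0.0135 and 0.00789 in UMUC3), the zinc finger gene ZNF331 (0.104) and the homeobox gene HOXC9 (0.104).

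BCUC-1 was compared with vector within each line, since the study screened for genes that follow BCUC-1. The ratios of reads per 1000000 ranged from 0.917 to 1.09 in T24T, and from 0.872 to 1.12 for the 5 members with a ratio in UMUC3. With 1 library per group these compare libraries, not conditions, and carry no test. CDKN2A in T24T had a ratio of 0.924 (0.826 to 1.03), CDKN2B 0.996 (0.775 to 1.28) and DMRTA1 0.917 (0.482 to 1.73). MLLT3 had 1.04 (0.612 to 1.76) in T24T and 0.964 (0.824 to 1.13) in UMUC3. KLHL9 had 0.968 (0.882 to 1.06) and 0.998 (0.917 to 1.09), and PLAA 1.04 (0.979 to 1.12) and 1.04 (0.985 to 1.09). All of these intervals include 1.

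The interval excluded 1 in 3 cases. MTAP in T24T had a ratio of 1.09 (1.002 to 1.18), where 4.73% of all genes reaching 20 reads over the 2 libraries lay higher by that measure and 9.33% lower. FOCAD had 1.0 (0.887 to 1.13) in T24T and 1.12 (1.04 to 1.21) in UMUC3. CAAP1 had 1.04 (0.965 to 1.12) in T24T and 0.872 (0.804 to 0.946) in UMUC3. In UMUC3 the shares of all such genes were 18.2% higher and 12.6% lower, so such an interval is common there. The UMUC3 ratios also moved with base composition. Genes of about the GC content of CAAP1 (37.7% in its longest transcript) had a median UMUC3 ratio of 0.910, and relative to that median CAAP1 stood at 0.958. FOCAD, at 45.5% GC, had a background of 1.02 and stood at 1.10 relative to it.

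Over both lines together, 0 of 15415 genes passed the limma test for BCUC-1 (0% at a Benjamini-Hochberg adjusted p of 0.05), with 652 at an unadjusted p under 0.05. Limma-voom on the recovered reads called 13 genes, none of them a member. The combined differences of the 8 members in the fit ran from -0.067 at CAAP1 to 0.069 at FOCAD. Their smallest adjusted p from limma was 0.998.

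**Figure D4:**
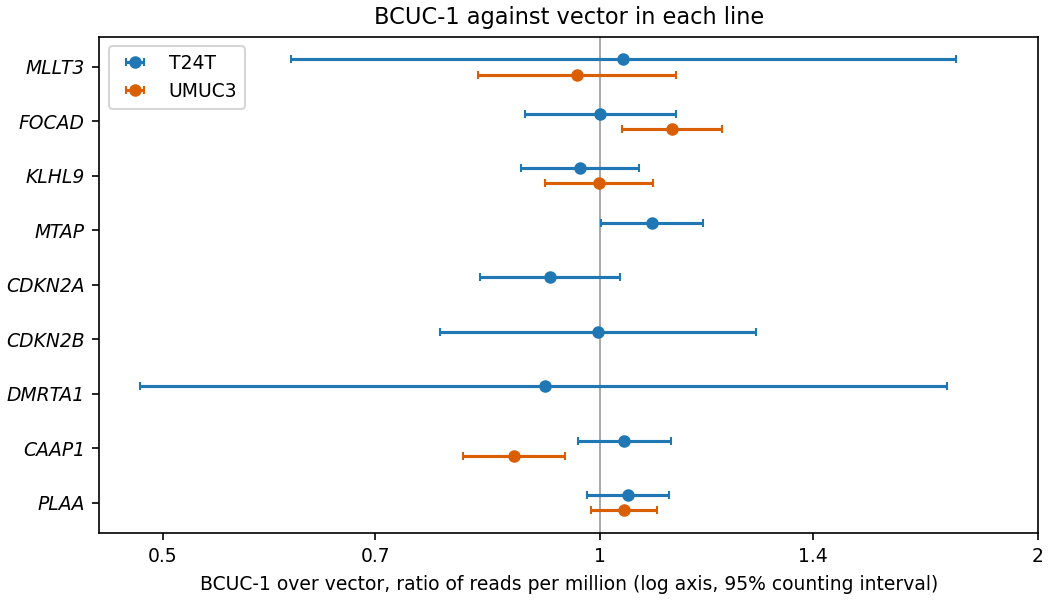
Ratio of BCUC-1 to vector in reads per 1000000 (logarithmic axis) for each gene in T24T (blue) and UMUC3 (orange), with exact 95% counting intervals. Intervals exclude 1 for MTAP in T24T (1.09) and for FOCAD (1.12) and CAAP1 (0.872) in UMUC3; MTAP, CDKN2A, CDKN2B and DMRTA1 have no ratio in UMUC3.

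The partners of the 9 gene products were read from lists of pathway genes. For each list the count past the limma test between the lines stands beside the 70.4% background, and differences are UMUC3 minus T24T in log2(RPKM + 1). None of the listed genes passed the BCUC-1 test.

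CDK4, a kinase that p16INK4a and p15INK4b inhibit, and 2 of its cyclins were higher in UMUC3. Of 14 tested RB pathway genes, 6 were higher and 3 lower, with a median of 0.019 against -0.10 for all genes. With equal medians 7 were higher and 1 lower. CCND2, a D-type cyclin, stood at 0.171 and 0.118 RPKM in T24T and at 6.46 and 6.55 in UMUC3, a difference of 2.71 (SE 0.099). CCND2, counted among the 6 higher, entered the fit through UMUC3 alone and so had to differ. CDK4 rose from 26.6 and 28.6 to 66.6 and 66.7 RPKM, a difference of 1.24 (SE 0.067), and the cyclin gene CCND1 by 0.55. CDKN2D, which encodes the related inhibitor p19INK4d, was lower, from 7.25 and 7.02 to 2.59 and 3.19 RPKM (-1.07, SE 0.11).

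On the ARF side, MDM2, the ubiquitin ligase that ARF inhibits, was lower in UMUC3, at 18.1 and 17.4 against 7.33 and 6.44 RPKM (-1.25, SE 0.080). Its relative MDM4 (-1.01) and the ligase HUWE1 (-0.88) were lower too. The list was split, since of its 8 genes 3 passed as higher in UMUC3 and 4 as lower. Of 8 Polycomb regulators of the locus, 3 were higher and 3 lower, with BMI1 at 0.79, SUZ12 at -0.93, RNF2 at -0.40 and CBX7 at 0.32.

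Around MTAP, SMS, ODC1 and MAT2A were higher in UMUC3. Of 10 genes of methionine salvage and polyamine synthesis, 3 were higher and 3 lower in UMUC3, with a median of 0.090. With equal medians 5 were higher and 2 lower. The spermine synthase gene SMS stood at 51.6 and 56.6 RPKM in T24T and 311.4 and 288.9 in UMUC3, a difference of 2.45 (SE 0.077). ODC1, the ornithine decarboxylase gene, differed by 1.495 (SE 0.064) and MAT2A, which makes S-adenosylmethionine, by 1.06 (SE 0.068). MRI1, the enzyme after MTAP in the salvage pathway, was lower, at -0.60 (SE 0.094).

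PRMT5 is a methyltransferase that methylthioadenosine inhibits. Of the 5 genes of its complex, 4 were higher in UMUC3 and 0 lower, with a median of 0.40 against -0.10 for all genes. Of all genes tested, 29.6% were called higher and 40.8% lower, or 70.4% in either direction. Whether the levels of this list are tied to MTAP was not tested. CLNS1A differed by 1.48, WDR77 by 0.51, PRMT5 by 0.40 and RIOK1 by 0.27. These 4 directions and calls were the same under equal medians and quantile normalization. RIOK1 missed the threshold with no filter on low values and in the fit without T24T vector, which left 1 T24T library.

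**Figure D5:**
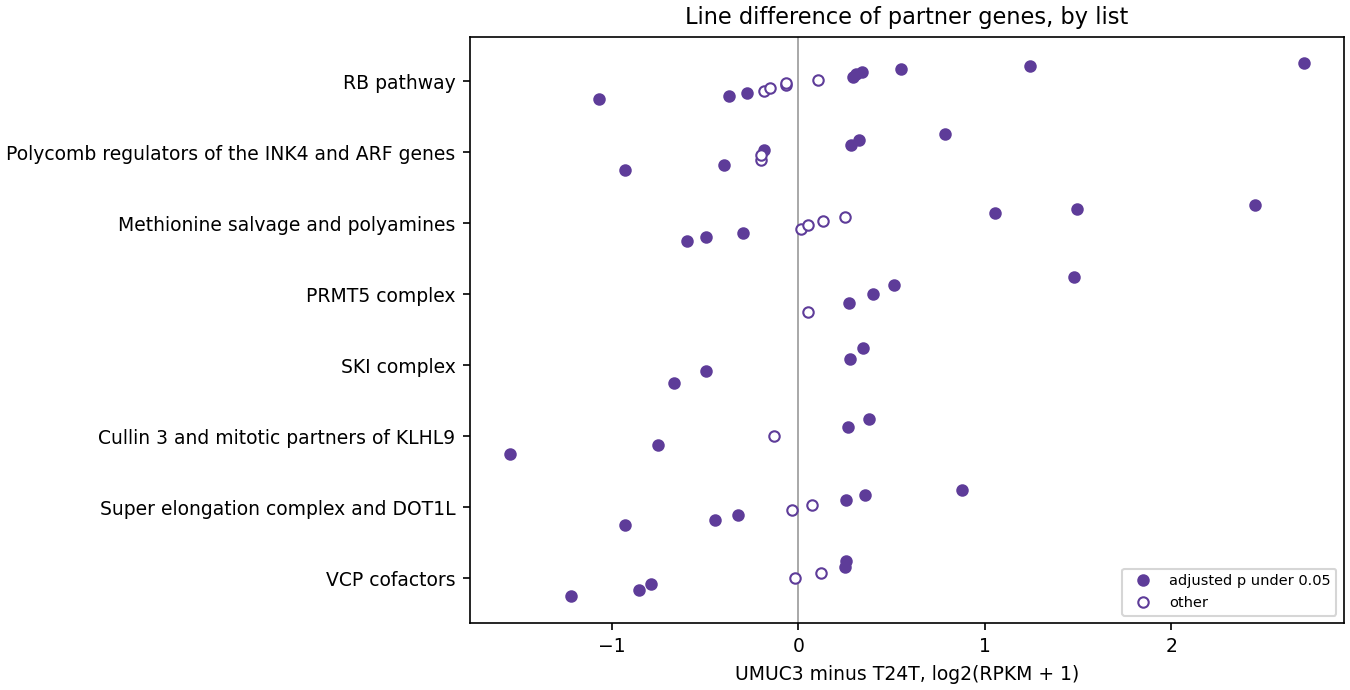
Difference between the lines, UMUC3 minus T24T in log2(RPKM + 1), of each partner gene in the fit, by list, without the ARF partners; filled points passed an adjusted p of 0.05 from limma and open points did not. The largest differences are CCND2 (2.71) and SMS (2.45), and KLHL13 (-1.55) is the lowest. CCND2 and KLHL13 entered the fit through 1 line alone and so had to differ.

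The remaining lists were split in direction. Scaling to equal medians turned the sign of 3 of their medians, from -0.11 to 0.019 for the SKI complex, from -0.13 to 0.0060 for the KLHL9 partners and from -0.021 to 0.11 for the VCP cofactors. For FOCAD, 2 of 4 SKI complex genes were lower in UMUC3, SKIV2L (-0.67) and WDR61 (-0.50), and 2 higher, TTC37 (0.28) and the bridging factor gene HBS1L (0.35). For KLHL9, its partner adaptor KLHL13 stood at 2.05 and 1.95 RPKM in T24T and at 0.0270 and 0.0252 in UMUC3, a difference of -1.55 (SE 0.092). KLHL13 entered the fit through T24T alone and so had to differ. The scaffold gene CUL3 was lower too (-0.75), and KLHL21 (0.38) and the mitotic kinase gene AURKB (0.26) were higher. Of the 5 KLHL9 partners, 2 were thus higher and 2 lower. For MLLT3, 3 of 8 genes of the super elongation complex and DOT1L were higher and 3 lower, with ELL2 at 0.88, CCNT1 at -0.93, AFF1 at -0.45 and DOT1L at 0.36. For PLAA, 2 of 7 VCP cofactor genes were higher and 3 lower, with YOD1 at -1.22, NSFL1C at -0.85, NPLOC4 at -0.79 and VCP itself at 0.26.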

How the data were processed

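Total RNA of T24T and UMUC3 cells with vector or BCUC-1 was sequenced, 1 library per group, and each column was assigned by its sample title. The deposited table gives RPKM, which the authors scaled per kilobase of exonic length and per 1000000 assigned reads. Per the file headers it also holds each gene's Length in bases, of unit "other". The submitters' processing notes list Bowtie 0.12.2. Its role, the build, annotation and counting, with or without strand, were not given in the sources used here. All 9 members share start and end with GENCODE 29 on GRCh38, as do 96.5% of 22720 singly matched genes in start or end, so coordinates are on that build.

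Reads were recovered as RPKM times length times depth, whole within 0.001 reads for 100% of genes. The line and BCUC-1 terms were fitted with limma 3.58.1 (R 4.3.3, intensity trend) on log2(RPKM + 1) for genes with at least 1 RPKM in 2 libraries, two-sided, with Benjamini-Hochberg adjustment over 15415 genes and 1 residual degree of freedom. Intervals of reads and ratios are exact at 95% (Poisson, Clopper-Pearson; scipy 1.17.1), and the limit for 0 reads is 3 reads. Tested on simulated data with known changes between the lines, the fit recovered 67.7% of 93 genes changed 2-fold and 7.37% of 95 changed 1.5-fold. It made 21 false calls among 14791 genes, which is a larger share of the calls made than of all genes. The simulation changed 200 genes, gave both lines the same mean for all others and used a dispersion of 0.005. In the data 70.4% of genes were called, so these rates do not carry over to the comparison of the lines. In a like simulation of BCUC-1 against vector, the fit recovered 83.0% of 94 genes changed 2-fold and 18.6% of 97 changed 1.5-fold. There it made 36 false calls among 15434 genes.

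The named genes were the 9 members, neighbouring rows with at least 20 reads in a library, up to 4 genes per list with the largest line difference past the test, and the 3 genes most like CDKN2A. IFT74, MIR31HG, IFNE, IFNW1, FOCAD-AS1, LINC01239, CLIC4P1, KHSRPP1 and the runs on other chromosomes fall outside that rule and were chosen after their values were seen. The members and lists were chosen with earlier results of these data known. Alternatives were other pseudocounts, floors, scalings, limma-voom, fits without a covariate or a library, other loss thresholds and, added after seeing the data, a correction for GC content within each line. Some values of the marker check and of the ARF partners are not reported here.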

Additional observations from a re-analysis of the deposited data

Results flagged for a closer look

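In 2 members the BCUC-1 library lay on opposite sides of the vector library in the lines, and the difference between the lines was not tested, since each group held 1 library. MLLT3 had a ratio of BCUC-1 to vector of 1.04 in T24T and 0.964 in UMUC3, and both counting intervals include 1. CAAP1 had 1.04 in T24T, with an interval that includes 1, and 0.872 in UMUC3, with one that does not. With the GC trend of each line removed, CAAP1 stayed on opposite sides (1.06 and 0.958), MLLT3 did not (1.05 and 1.06), and KLHL9 came to lie on opposite sides (0.983 and 1.07).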

How the results depend on the processing

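MLLT3, FOCAD, MTAP, CDKN2A, CDKN2B and PLAA kept the direction of their line difference in every alternative that could be fitted. In those that used all 4 libraries they also kept the call, with adjusted p-values from limma of at most 0.0184. MLLT3, MTAP, CDKN2A and CDKN2B entered through 1 line alone, so at the floor of 1 RPKM their kept calls follow from the filter. KLHL9 kept its direction and passed with quantile normalization (0.30), equal medians (0.33), limma-voom (0.23) and no treatment covariate (0.20). CAAP1 kept its direction and missed the threshold with no filter (-0.28), quantile normalization (-0.21) and equal medians (-0.15), and leaving out each library in turn gave -0.38 to -0.19, past the threshold without either UMUC3 library and not without either T24T library. The floor of 5 RPKM removed MLLT3, FOCAD, MTAP and CDKN2B, and left 6780 genes called between the lines against 10847. The count of genes called for BCUC-1 was 1 with a pseudocount of 0.1, 60 at 5 RPKM, 4 with equal medians and 13 with limma-voom, against 0, and no member was among them. With loss at under 0.5 RPKM, 1 row of the window and 1 member were lost in T24T, and in the rest of chromosome 9 there were 46 in UMUC3 and 23 in T24T. With retention at 0.5 RPKM the window had 9 in UMUC3 and the rest of chromosome 9 had 23, with no share over all genes given. The CAAP1 ratio in UMUC3 was 0.958 with the GC trend removed. The cause of these changes was not tested, except that a higher floor tests fewer genes. Each fit without a library also had no treatment covariate and took its spread from the line that kept both libraries, assuming that the lone library varied alike, so calls lost there are not put down to the library alone. Without either T24T library, 2 of the 4 SKI complex genes passed. The list genes named by rule kept their direction in each alternative that could be fitted (10 or 11 a gene). AFF1, RNF2, KLHL21, DOT1L, HBS1L, CBX7, TTC37, RIOK1, AURKB and VCP missed the threshold in at least 1 of them. CCND2 and KLHL13 reached the floor through 1 line alone, so their direction at that floor was set in advance. At these depths, 3 reads correspond to 0.113 to 0.132 reads per 1000000. DMRTA1 could therefore be bounded only to 6.75-fold, and to less once the counting error of its T24T reads is included. The labels give no replicate numbers to pair libraries by. Treatment paired the lines as a covariate of the fit, and the values without it are those of no treatment covariate.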

Other observations

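Stretches of consecutive listed rows with at most 1 read in one line were searched on all autosomes, a search chosen after the 9p21 values were seen. There were 1431 such stretches of 2 or more rows in UMUC3 and 1418 in T24T. By reads of the other line, the stretch from KHSRPP1 to DMRTA1 ranked 1, with 4787 T24T reads over 15 rows. Next came a stretch of 4 rows on chromosome 15 from TMEM266 to TYRO3P with 1 UMUC3 read and 3501 T24T reads. By the number of rows with at least 20 reads in the other line it ranked 3, with 7 rows. A stretch of protocadherin alpha genes on chromosome 5 (VTRNA1-1 to PCDHAC2, 16 such rows of 22, with 3 T24T reads) and one of small nucleolar RNA genes on chromosome 15 (SNORD108 to SNORD115-46, 11 such rows of 33, with 1 UMUC3 read) ranked above it. Rows that share exons may count the same reads more than once.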
